A study of Dahlia pinnata with 6 samples.

Results

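miR160, miR167 and miR390 are plant microRNA families that act on auxin response factors (ARFs), the transcription factors that carry out the response to the hormone auxin. The rows with exactly these 3 names were taken from a deposited table of small RNA read counts in dahlia petals. They are 3 of 116 rows with microRNA names and 3 of 47083 rows in all, the other 46967 being transcript contigs of an assembly. The libraries came from bicolor petals of the cultivar Yuino, labelled Dahlia pinnata, grown in a greenhouse with no treatment named. The growth protocol names the species D. variabilis instead. The pigmented red part and the unpigmented white part of the petals were dissected apart, and 3 small RNA libraries were made from each, so all libraries share the cultivar and differ by petal part. The study asked whether flavonoids, the pigment family of the red part, hold back the siRNA production of DCL4, a Dicer-like enzyme of plants. Whether the 3 libraries of a colour stem from different plants is not in the labels. The p-values below therefore rest on library-to-library spread, part of which may be technical. Those of edgeR also draw on the spread of other rows. The contigs carry no gene names here, so red and white tissue could not be checked against pigment genes, and no sequence of the dahlia microRNAs was used here.

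The 3 families reach the ARFs by different routes. In Arabidopsis, miR167 directs cleavage of the transcripts of ARF6 and ARF8, which promote the growth and maturation of floral organs. miR160 directs cleavage of a separate ARF group, ARF10, ARF16 and ARF17, which are mostly repressors of auxin response. miR390 works indirectly: bound to the Argonaute protein AGO7, it cuts the non-coding TAS3 transcript, which is then made double-stranded and diced by DCL4 into trans-acting siRNAs against ARF2, ARF3 and ARF4. miR390 is therefore the member whose downstream products depend on the enzyme the study asked about.

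The members had very different levels in the petal. miR167 was among the most abundant microRNAs, miR160 was scarce and miR390 was at the limit of detection. Levels are given as normalised counts, abbreviated CPM, which are counts scaled to a common library size by TMM, a scaling that centres most rows between libraries. The mean over the 6 libraries was 994 CPM for miR167, 4.35 CPM for miR160 and 0.878 CPM for miR390. Among the 116 microRNA names, these means ranked 7, 33 and 50. miR167 alone held 99.1% to 99.7% of the reads of the 3 members in each library. Levels of different names are read counts of rows whose sequences and lengths were not used here, so the order is one of reads and not of molecules.

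**Figure D1:**
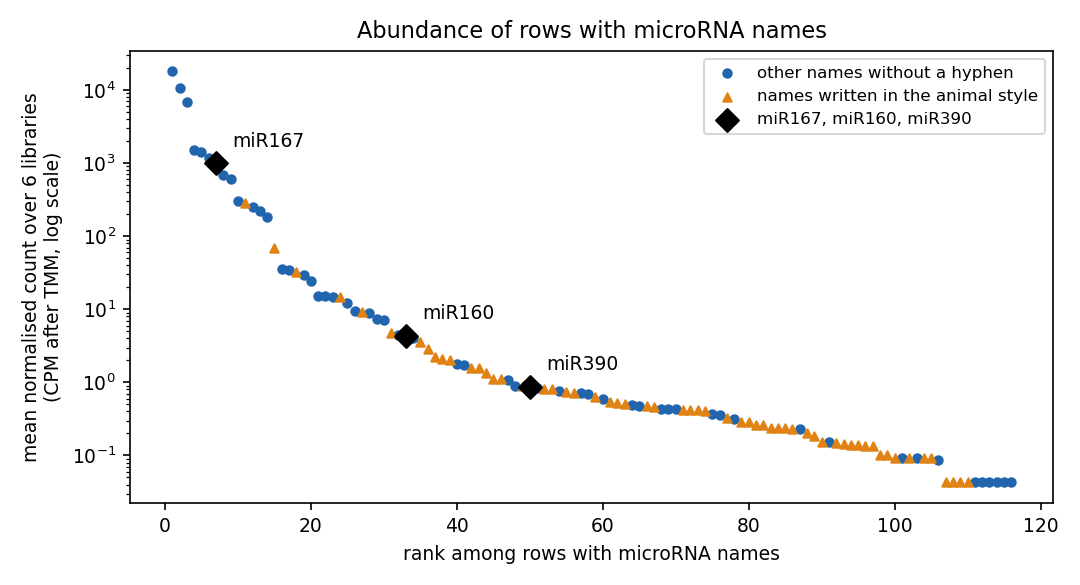
Mean normalised count over the 6 libraries (CPM after TMM, log scale) of each of the 116 rows with microRNA names against its rank, with the members as diamonds and the 59 names written in the animal style as triangles. miR167 ranks 7, above every animal-style name, while miR160 at rank 33 and miR390 at rank 50 lie where both kinds of name mix. The style goes by spelling alone, so names without a hyphen that are not plant families, such as miR647, are not triangles.

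miR167 was read 2230, 4136 and 2251 times in red replicates 1, 2 and 3, and 3623, 4266 and 3067 times in white replicates 1, 2 and 3. As normalised counts these were 575, 1202 and 658 CPM in red and 1076, 1539 and 912 CPM in white. Replicate 2 was the highest library of both parts, and red replicate 2 lay above white replicates 1 and 3, so the groups overlapped. Each white library lay above each red one for 8.94% of all tested rows, and miR167 was not among them. White exceeded red in 7 of the 9 ways to set 1 red beside 1 white library. In bulk tissue, a difference in the number of cells of a type and one in RNA per cell cannot be told apart.

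**Figure D2:**
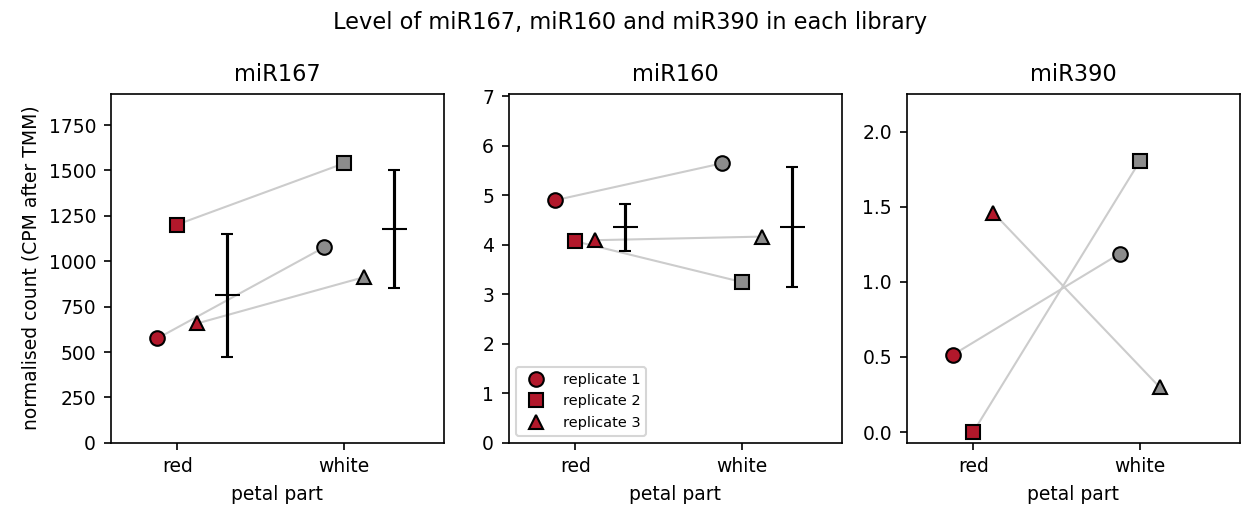
Normalised count (CPM after TMM) of miR167, miR160 and miR390 in each library, with a marker shape per replicate number, grey lines joining same-numbered libraries and, for miR167 and miR160, the mean with its SD (n = 3) beside the points. All 3 lines of miR167 rise towards white, while those of miR160 and miR390 go both ways.

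The mean of miR167 was 812 ± 341 CPM in red and 1176 ± 325 CPM in white (SD, n = 3 each), a ratio of 1.45. Fitted without pairing, this difference did not pass edgeR's quasi-likelihood test over the 7001 tested rows (log2 fold change 0.53 ± 0.34 SE, adjusted p = 0.60, unadjusted p = 0.168). Its 95% interval ran from a 0.812-fold to a 2.58-fold level in white against red. The test called 1.06% of the tested rows, and neither of the 2 members it could be run on was among them. All log2 fold changes here are of white against red.

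Red and white libraries carry the same replicate numbers, and same-numbered libraries deviated together across the table. For miR167 the ratio of white to red was 1.87 in replicate 1, 1.28 in replicate 2 and 1.39 in replicate 3. White was thus higher in all 3 same-numbered pairs, as it was for 19.4% of all tested rows. With the replicate number as a block, miR167 rose in white by 0.58 ± 0.13 SE on the log2 scale (edgeR adjusted p = 0.014), a 1.49-fold difference with a 95% interval from 1.23-fold to 1.80-fold. That fit called 4.83% of the tested rows, and 2.24% as higher in white. miR160, the other tested member, was not called.

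The blocked call of miR167 depended on the libraries and the scaling, while its direction did not. Without the replicate 1 libraries of both parts the blocked log2 fold change was 0.41 (edgeR adjusted p = 0.28). Without those of replicate 3 it was 0.63 (edgeR adjusted p = 0.23). Without those of replicate 2, the highest libraries for miR167, it was 0.69 (edgeR adjusted p = 2.9e-04). That fit called 530 of 7390 tested rows, against 120 of 7186 without replicate 1 and 50 of 7476 without replicate 3. Each of these fits keeps only 2 pairs and leans on the spread of other rows for its error. The smaller p is therefore no sign of stronger evidence. Blocked and scaled by library totals, the log2 fold change of miR167 was 0.42 (edgeR adjusted p = 0.12). The 7001 tested rows had a median log2 fold change of -0.01 with TMM, -0.16 with library totals and 0.18 with scaling to the microRNA total. Taken relative to that median, the unpaired log2 fold change of miR167 was 0.54 with TMM, 0.53 with library totals and 0.51 with the microRNA total.

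**Figure D3:**
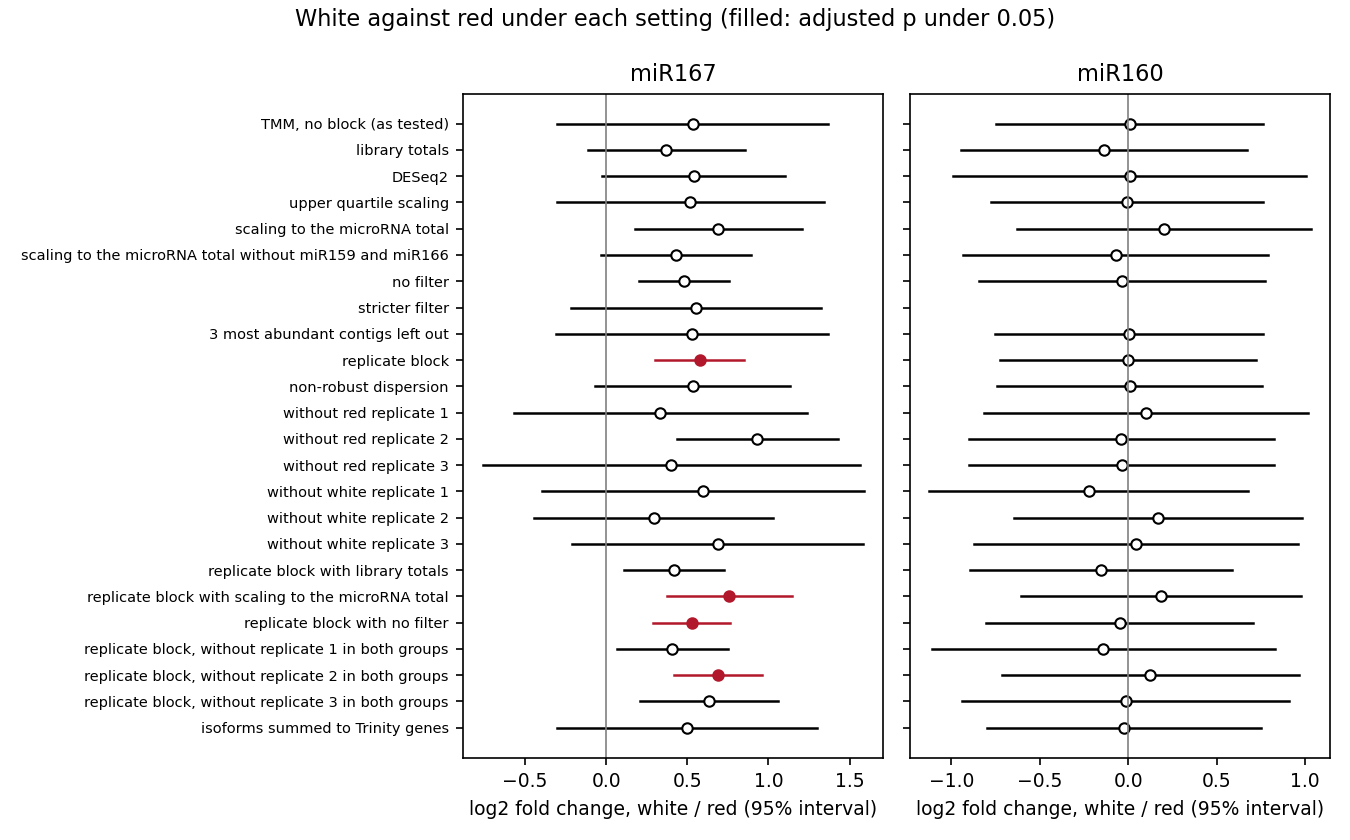
Log2 fold change of white against red (points) with its 95% interval (lines) for miR167 and miR160 under each setting, filled where the adjusted p is under 0.05. All estimates of miR167 lie above 0 but only 4 blocked settings pass, while those of miR160 lie on both sides of 0 and none passes.

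The spread of miR167 between libraries was far larger than read counting gives. Its coefficient of variation was 42.0% in red and 27.7% in white, against 1.87% and 1.65% from Poisson counting alone.

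Within the microRNA reads, miR167 took 1.28%, 2.61% and 1.37% in red replicates 1, 2 and 3. In white replicates 1, 2 and 3 it took 2.76%, 3.27% and 2.47%. The exact (Clopper-Pearson) 95% intervals of these shares were narrow, from 1.23% to 1.33% in red replicate 1 and from 2.39% to 2.56% in white replicate 3, and cover counting error only. The mean share was 1.75% ± 0.74 over the red and 2.83% ± 0.40 over the white libraries (SD, n = 3 each). On this scale red replicate 2 lay above white replicate 3 only (two-sided exact permutation p = 0.2, adjusted 0.6 over the 3 members, smallest possible p 0.1). The share rests on its denominator too, since microRNA names together took 4.51% to 4.997% of the reads in red and 3.65% to 3.87% in white. As a part of all tabulated reads, miR167 made up 0.0824% ± 0.0308 in the red and 0.107% ± 0.019 in the white libraries (SD, n = 3 each). By rank among microRNA names it stood at 8, 6 and 8 in red replicates 1, 2 and 3 and at 6, 6 and 7 in white replicates 1, 2 and 3.

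The names next to miR167 in level were miR156, which targets SPL genes of the juvenile-to-adult transition, and miR647. miR156 averaged 1172 CPM over the 6 libraries and was read more often than miR167 in 5 of them. miR647 averaged 692 CPM and was read less often in 5 of them. White replicate 2 was the exception, with 7093 reads of miR647 against 714 to 1308 in the other libraries.

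miR156 was also the name whose log2 levels followed those of miR167 most closely, with a Pearson correlation of 0.89 over the 6 libraries among 33 names compared. miR-12 (0.80) and miR396 (0.71), a regulator of GRF growth genes, came next. Values of a library share its scaling and depth, so these are descriptions without a test. Without red replicate 1 and white replicate 2, the libraries farthest from the median of miR167, the correlations were 0.64 for miR156, -0.07 for miR-12 and -0.25 for miR396. miR156 was high in replicate 2 as well: red replicate 2 held 1485 CPM and white replicate 2 held 1744 CPM, against 799 to 1043 CPM in the other 4 libraries. Its own difference between the parts did not pass (log2 fold change 0.18 ± 0.32 SE, edgeR adjusted p = 0.87).

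miR160 was read 19, 14 and 14 times in red replicates 1, 2 and 3 and 19, 9 and 14 times in white replicates 1, 2 and 3. The normalised counts were 4.90, 4.07 and 4.09 CPM in red and 5.64, 3.25 and 4.16 CPM in white. Replicate 1 was the highest library of both parts, and the red values lay wholly inside the range of the white ones. The mean was 4.35 ± 0.47 CPM in red and 4.35 ± 1.21 CPM in white (SD, n = 3 each). The difference did not pass edgeR's test (log2 fold change 0.01 ± 0.35 SE, adjusted p = 0.99), and its 95% interval ran from a 0.596-fold to a 1.70-fold level in white. The interval holds both a rise and a fall, and it is not a limit of detection. The sign of this small estimate turned under several scalings.

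The spread of miR160 was below that of counting in red and near it in white. Its coefficient of variation was 10.9% in red and 27.8% in white, against 25.3% and 26.7% from Poisson counting. In pooled reads it had 47 in red (exact Poisson 95% interval 34.5 to 62.5) and 42 in white (30.3 to 56.8). Its neighbours in level were miR408, a regulator of copper protein genes, at 4.40 CPM and miR172, a regulator of AP2-type floral genes, at 4.10 CPM. The order among these names changed from library to library: miR160 was read more often than miR408 in 4 of 6 libraries, and more often than miR172 in 3 of 6 with 1 tie. The names most like miR160 across libraries correlated weakly, at 0.38 for miR371, 0.34 for miR-99 and 0.30 for miR-81, and such values at counts this low are no finding.

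The ratio of miR167 to miR160 within a library does not depend on scaling between libraries. There were 117, 295 and 161 reads of miR167 per read of miR160 in red replicates 1, 2 and 3. In white replicates 1, 2 and 3 there were 191, 474 and 219. The ratio was highest in replicate 2 of both parts, and red replicate 2 lay above white replicates 1 and 3. The log2 ratio of miR160 to miR167 averaged -7.47 ± 0.68 over red and -8.08 ± 0.71 over white libraries (SD, n = 3 each; two-sided exact permutation p = 0.4). It was lower in white in all 3 same-numbered pairs (exact sign-flip p = 0.25, the smallest that 3 pairs allow).

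miR390, the trigger of the TAS3 pathway, was read 2, 0 and 5 times in red replicates 1, 2 and 3. In white replicates 1, 2 and 3 it was read 4, 5 and 1 times. The libraries of both parts covered nearly the same range, and 3 of the 6 had fewer than 3 reads, the floor used for detection. In red replicate 2, with no read, a floor of 3 reads stands for 0.872 CPM. miR390 did not pass the filter on low counts and was not in the edgeR fit. Its share of the microRNA reads gave a two-sided exact permutation p of 0.5 (adjusted 0.6 over the 3 members). Pooled over libraries it had 7 reads in red (exact Poisson 95% interval 2.81 to 14.4) and 10 in white (4.80 to 18.4). Corrected for library size, the ratio of white to red was 1.61 with an exact interval from 0.555 to 4.999, which covers counting error only. That interval spans both a fall and a rise, and it is not a limit of detection either. Every row of the table had at least 1 read in red replicate 1, so counts this low in that library are biased upward.

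The level of miR390 also lay within that of rows named after animal microRNAs. The table holds 59 names written in the animal style (let-7, bantam and names of the form miR-1), whose mean counts over the 6 libraries had a median of 1.33 reads. Of these, 18 of 59 had a mean count at or above the 2.83 reads of miR390. For miR160, with a mean of 14.8 reads, it was 6 of 59, and for miR167, with 3262 reads, 0 of 59. The highest of the animal-style names was miR-24, at 955 reads. The style goes by spelling alone. The row miR647, written without a hyphen and not among the plant family names used here, was therefore not counted. Its mean was 2108.5 reads, and in white replicate 2 it had 7093 reads against 4266 of miR167. What these reads come from was not tested. Names in the table have at most 6 characters, so a row could also hold longer names cut to the same start. The rows miR-16 and miR-39, which share leading digits with the members, held 1 to 5 and 4 to 17 reads per library. The neighbours of miR390 in level were let-7g at 0.895 CPM and miR482 at 0.847 CPM. miR390 was read more often than let-7g in 4 of 6 libraries and more often than miR482 in 3 of 6.

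Of 3 further microRNAs of auxin signalling (miR393, miR164 and miR847), 2 had a row, and neither passed the unpaired test. miR393, which targets the auxin receptors of the TIR1 and AFB group, was read 61, 44 and 15 times in red replicates 1, 2 and 3 and 42, 47 and 39 times in white replicates 1, 2 and 3. Red replicate 3 stood low and the groups overlapped (log2 fold change 0.30 ± 0.38 SE, edgeR adjusted p = 0.82; without red replicate 3 it was -0.07). miR164, which targets NAC genes including the auxin-responsive NAC1, was read 173, 121 and 175 times in red and 94, 61 and 111 times in white, in the order of replicates 1, 2 and 3. Each red library lay above each white one as normalised counts, as for 8.84% of all tested rows. Its log2 fold change was -0.65 ± 0.21 SE (edgeR adjusted p = 0.17), and with the replicate block it fell by 0.66 on the log2 scale (edgeR adjusted p = 0.026). That call was lost without the replicate 1 libraries of both parts (edgeR adjusted p = 0.21), without those of replicate 3 (0.27) and when scaled to the microRNA total (0.21). With the block and TMM, then, miR167 and miR164 were called in opposite directions, while miR160 and miR393 were not called. That fit called 2.24% of all tested rows higher and 2.59% lower in white.

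Of 7 names of other known triggers of phased siRNAs (miR173, miR161, miR400, miR393, miR482, miR472 and miR828), 3 had a row, and miR393 alone passed the filter on low counts. miR161 had 6, 1 and 1 reads in red replicates 1, 2 and 3 and 0 in each white library. Of the 6 libraries, 5 were under the floor of 3 reads, and miR161 was not in the edgeR fit. Among tested rows, 8.84% lay wholly lower in white. Every row of the table had at least 1 read in red replicate 1, so low counts there are biased upward, as for miR390. A name without a row could thus have been read in another library. miR482, which in several plants triggers phased siRNAs from disease resistance genes, had 1 to 5 reads per library.

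Among the 22 tested plant microRNA names, miR167 had the log2 fold change with rank 2 from the top, next to miR395, and miR160 had rank 7. Some names share targets, such as miR165 with miR166 and miR170 with miR171, so these are not 22 separate families. The median over these names was -0.28, against -0.01 over all tested rows, with 7 names above 0 and 15 below. miR167 was the only one of the 22 with white above red in all 3 same-numbered pairs, while 6 were lower in all 3 and 15 were mixed. Over all tested rows, 19.4% were higher and 18.8% lower in all 3 pairs, so such patterns are common in the table. miR395, a regulator of sulfate assimilation, had a nearly equal estimate but a far wider error (0.54 ± 0.84 SE, edgeR adjusted p = 0.86). With the replicate block, 1 of the 22 names was called higher in white (miR167) and 3 lower, where the same fit called 2.24% of all tested rows higher and 2.59% lower.

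**Figure D4:**
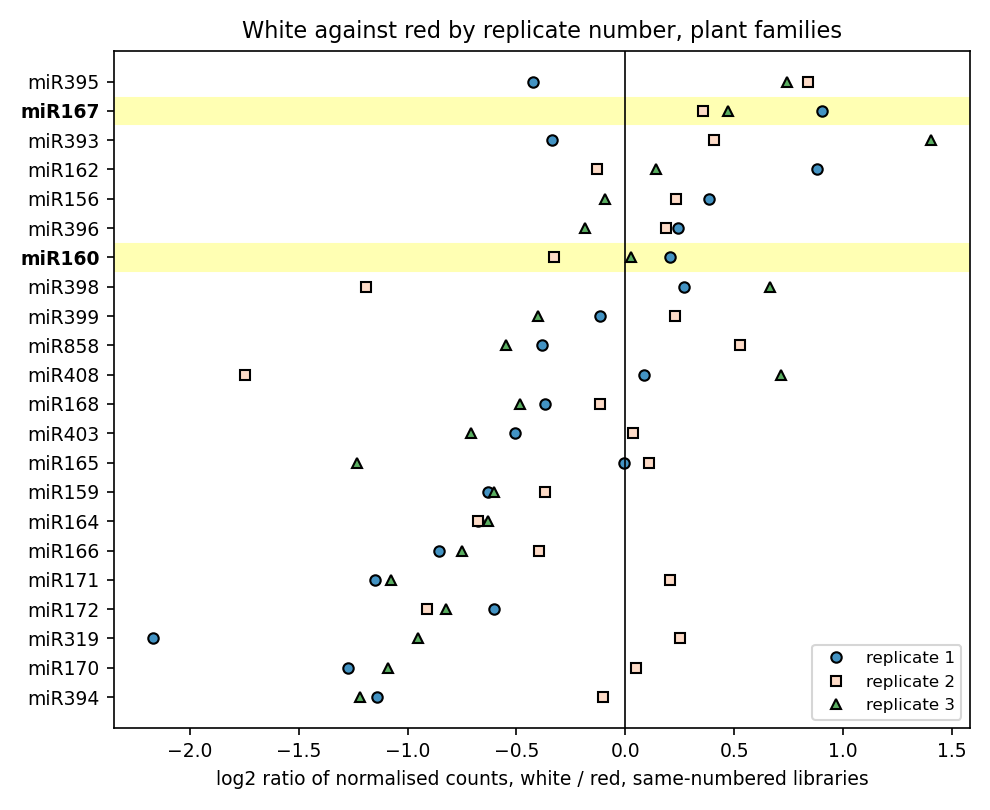
Log2 ratio of normalised counts, white over red, for same-numbered libraries (1 marker per replicate number) in the 22 tested names of plant families, ordered by fitted log2 fold change, with miR167 and miR160 shaded. The 3 points of miR167 lie at 0.90, 0.36 and 0.47 for replicates 1, 2 and 3, and those of miR160 at 0.20, -0.33 and 0.03.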

How the data were processed

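The deposited values are raw small RNA read counts per row, not normalised by the authors, for 3 red and 3 white libraries. Trizol extraction was followed by NEBNext small RNA library preparation, per the labels' protocols. cutadapt and Bowtie2 are named in the submitters' processing notes. Versions, settings, read lengths counted, the microRNA reference and the handling of reads matching several rows are not given in the sources used here, and how ambiguous reads were assigned could change low counts. Groups and replicate numbers come from the sample titles. Column totals were 3277753 to 3662222 reads, of which 124111 to 174240 had microRNA names. Within a part, pairs of libraries had a chi-square of at least 4.82 per degree of freedom, above sampling noise.

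White was compared with red by edgeR 4.0.16 (R 4.3.3) on the whole table: TMM scaling, filterByExpr with a minimum count of 10, robust quasi-likelihood test, Benjamini-Hochberg adjustment over 7001 tested rows, threshold 0.05. The SE is the log2 fold change divided by the square root of F. The unpaired fit, but not the blocked one, was also run on simulated counts, and its outcome there is not used here. Shares and ratios were compared by exact permutation (scipy 1.17.1). Ratios with miR390 were not formed, because red replicate 2 had 0 reads. After removal of group means, the red and white library of a number had correlations over the tested rows of 0.20, 0.29 and 0.20 in replicates 1, 2 and 3 (log2 values, prior count 2). Each exceeded 0.1, and the numbers were treated as pairs in the blocked fits and the same-numbered comparisons, while the planned fit was unpaired. These correlations come from the same counts that were then tested. The labels themselves do not say what a number marks. DESeq2 1.42.0, other scalings, other filters, a replicate block and leaving out each library were alternatives. Members and lists were chosen with earlier results of these data known. The named microRNAs are the members, the auxin and trigger lists, the 3 names most correlated with each tested member and the neighbours of each member in level. The animal-style names, miR395 and the rows miR-16 and miR-39 were added after their values were seen.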

Additional observations from a re-analysis of the deposited data

How the results depend on the processing

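Alternatives that join the replicate block with another choice, leave out both libraries of a number or sum isoforms were added after seeing the data. miR167 stayed above 0 in all 23 alternatives and passed in 4, all with the replicate block: alone (0.58, adjusted p = 0.014), with scaling to the microRNA total (0.76), with no filter (0.53) and without replicate 2 in both groups (0.69). With 1 library left out its log2 fold change ranged from 0.29 to 0.93, the highest without red replicate 2 (adjusted p = 0.079). miR160 passed in none, and its sign turned with library totals (-0.14), upper quartile scaling (-0.0065), the microRNA total without miR159 and miR166 (-0.071), no filter (-0.035), summed isoforms (-0.026), the replicate block (-0.0016), the block with library totals (-0.15) or no filter (-0.048), and the block without replicate 1 (-0.14) or 3 (-0.013). Leaving out 1 library gave -0.22 to 0.17. A stricter minimum count of 30 removed miR160 from the test. The difference in the share of miR160 turned when taken of all tabulated reads (-4.2e-05 percentage points) or of microRNA reads without miR159 and miR166 (-0.00083), and ranged from -0.00034 to 0.0034 with 1 library left out. With no filter the estimate for miR390 was 0.62 ± 0.83 SE on the log2 scale (edgeR adjusted p = 0.94). The 74 changed rows became 153 with library totals, 135 with the microRNA total, 130 with that total without miR159 and miR166, 254 with no filter, 338 with the replicate block, 395, 284 and 384 with the block and library totals, microRNA total or no filter, 120 and 530 with the block without replicate 1 or 2, and 35 to 176 with 1 library left out. Other signs that turned were those of miR396 (library totals -0.081, microRNA total without miR159 and miR166 -0.0077, block with library totals -0.077, block without replicate 1 -0.0049, -0.013 to 0.15 with 1 library left out), miR408 (0.43) and miR647 (-0.19) in the block without replicate 2, and with 1 library left out miR156 (-0.14 to 0.46), miR393 (-0.073 to 0.66), miR408 (-0.71 to 0.18) and miR647 (-0.24 to 2.11). The causes were not tested. With TMM and the usual filter, the block alone changed the calls of miR167, miR164 and miR371 and of no other named microRNA. Joined with another choice it also added miR-81 with no filter (log2 fold change 2.09, adjusted p = 2.9e-07) and miR-99 with library totals (-0.58, adjusted p = 0.027). Without a block, miR371 passed with no filter (log2 fold change -0.91, edgeR adjusted p = 0.036).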
